A study of Mus musculus with 4 samples.

Results

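The genes described here are the chemokine ligands of the mouse, taken as every gene symbol of the count table that starts with Ccl or Cxcl and ends in a number with or without a letter from a to e, together with Cx3cl1 and Xcl1. They are 39 of the 24527 genes in the table. The table holds 4 RNA-seq libraries, 1 for each of 4 conditions of the B16F10 melanoma line, a line of C57BL/6 origin. In the 2D monoculture, B16F10 cells were grown alone as a monolayer. In the 2D co-culture, called the co-culture from here on, they were grown with NIH/3T3 mouse fibroblasts, and in the spheroid B16F10 and NIH/3T3 cells were grown together as hanging drops. The cultures used a B16F10 line with a green fluorescent protein, and green live cells were sorted away from red fluorescent NIH/3T3 cells. The tumor was grown under the skin of female C57BL/6 mice aged 1 year. The label of the tumor library describes snap-frozen tumor and gives no cell line, whereas the methods describe sorted cells. All 4 libraries are labelled wild type, and the labels name no drug or other agent for any of them. The methods give a number of samples for RNA extraction but not how these relate to the single library of each condition.

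Chemokines are small secreted proteins that guide the movement of leukocytes and other cells through receptors coupled to G proteins. They are named after the spacing of their first cysteines, as CC, CXC, CX3C and XC ligands, and many of them lie next to each other in the genome. In tumors, CXCR3 ligands are known to attract T cells and NK cells, CCR2 ligands attract monocytes, and CXCR2 ligands attract neutrophils. Many chemokine genes are induced by interferons or by NF-kB, and macrophages, fibroblasts and tumor cells can all make them.

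With 1 library for each condition, differences have no replicate check, and neither a test nor a p-value is given. The libraries held between 118896900 and 150028663 reads. Levels are given as CPM, a gene's reads relative to the library's total (counts-per-million), after TMM scaling of the 4 libraries. All intervals given are 95% intervals for counting error alone, and the 3 reads that a count of 0 allows came to between 0.0185 CPM in the tumor and 0.0262 CPM in the co-culture. The 8 melanocyte markers, which check the labelled cell type, summed to between 11420 CPM in the spheroid, with 20122 CPM in the tumor, and each had at least 1 CPM in every library. Levels of different genes are ranked only per kilobase of exon, with exon lengths from GENCODE, and a CPM is compared between libraries.

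Where the ligands lie in the genome matters for the contrasts given further on. Of the 39 genes, 12 are on chromosome 11 and 11 on chromosome 5 of mm10, the build named in the submitters' processing notes. On chromosome 11, Ccl2, Ccl7, Ccl11, Ccl12, Ccl8 and Ccl1 lie within 144 kb, from 82035577 to 82179812. A second group of Ccl5, Ccl9, Ccl6, Ccl3 and Ccl4 lies within 139 kb, from 83525778 to 83664683. On chromosome 5, Cxcl5, Cxcl3, Cxcl15, Cxcl1 and Cxcl2 lie within 147 kb, from 90759298 to 90905938. Cxcl9, Cxcl10 and Cxcl11 lie within 42.0 kb, from 92321331 to 92363296.

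Promoter sequences are shown for 2 pairs of neighbouring genes with unlike levels, Cxcl10 and Cxcl9 as ligands of CXCR3 and Cxcl1 and Cxcl2 as ligands of CXCR2. Each sequence, from RefSeq on GRCm38, runs 5′ to 3′ on the strand of the gene, from 250 bases before the start to 50 bases into it. The capitals mark matches, on either strand, to the NF-kB consensus or to the core of the interferon-stimulated response element. The former was searched as GGG, a purine, any 2 bases, 2 pyrimidines and CC, and the latter as GAAA, any 2 bases and GAAA.
Cxcl10, chr5:92348840-92349139, minus strand: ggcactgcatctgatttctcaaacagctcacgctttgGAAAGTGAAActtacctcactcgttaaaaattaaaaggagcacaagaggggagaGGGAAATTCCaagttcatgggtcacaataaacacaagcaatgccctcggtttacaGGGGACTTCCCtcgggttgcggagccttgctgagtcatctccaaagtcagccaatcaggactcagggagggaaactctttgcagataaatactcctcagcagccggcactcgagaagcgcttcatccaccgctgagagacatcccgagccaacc
Cxcl9, chr5:92328030-92328329, minus strand: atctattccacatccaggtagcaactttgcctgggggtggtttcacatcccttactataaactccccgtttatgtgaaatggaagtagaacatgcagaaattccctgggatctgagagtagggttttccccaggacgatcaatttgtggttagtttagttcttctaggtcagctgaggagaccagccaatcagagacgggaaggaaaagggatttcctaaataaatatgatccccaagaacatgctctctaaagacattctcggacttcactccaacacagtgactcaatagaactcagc
Cxcl1, chr5:90890995-90891294, plus strand: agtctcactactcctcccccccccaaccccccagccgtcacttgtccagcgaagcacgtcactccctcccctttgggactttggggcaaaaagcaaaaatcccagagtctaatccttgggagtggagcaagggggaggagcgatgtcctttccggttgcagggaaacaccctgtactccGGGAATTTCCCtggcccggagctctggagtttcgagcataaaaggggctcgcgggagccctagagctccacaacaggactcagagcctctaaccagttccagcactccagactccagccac
Cxcl2, chr5:90903649-90903948, plus strand: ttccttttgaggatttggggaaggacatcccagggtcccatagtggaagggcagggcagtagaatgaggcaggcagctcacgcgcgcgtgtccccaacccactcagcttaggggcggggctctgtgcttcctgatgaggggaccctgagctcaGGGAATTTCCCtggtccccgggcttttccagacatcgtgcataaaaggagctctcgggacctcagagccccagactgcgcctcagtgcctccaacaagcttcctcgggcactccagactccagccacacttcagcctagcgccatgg

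The promoter of Cxcl10 held 1 match to the interferon element and 3 to the NF-kB consensus, 2 of them shifted by 1 base on the strand of the gene. That of Cxcl1 and that of Cxcl2 each held 2 matches to the NF-kB consensus on opposite strands, shifted by 1 base, over the same letters GGGAATTTCCC. The promoter of Cxcl9 held no match to either. A promoter was found for 27 of the 39 ligands, with 33 promoters between them. The NF-kB consensus was present in 8 of these 33 promoters and in 8.46% of all 32851 promoters. The interferon element was present in 3 of the 33, of Ccl19, Cxcl10 and Cxcl14, and in 3.44% of all promoters. These matches are letters in a window and not sites of binding.

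Of the 39 ligands, 34 had a read in at least 1 library and 26 reached 1 CPM in at least 1 library. The 5 ligands without a read were Ccl21a, Ccl21b, Ccl21c, Ccl26 and Ccl27b. Ccl21a, Ccl21b and Ccl21c are near-identical copies, and Ccl27b is a copy of Ccl27a, so counting that leaves out reads with several matches could place them at 0. The other 8 ligands, Ccl1, Ccl17, Ccl19, Ccl20, Cxcl11, Cxcl15, Cxcl17 and Xcl1, stayed under 1 CPM in every library. The number of ligands with at least 1 CPM was 5 in the 2D monoculture, 10 in the co-culture, 4 in the spheroid and 25 in the tumor. All ligands summed to 50.5 CPM in the 2D monoculture, 69.4 CPM in the co-culture, 108 CPM in the spheroid, with 1304 CPM in the tumor. In the cultures a few ligands held most of this sum. The top 3 ligands took 88.7% of the chemokine reads of the 2D monoculture, 57.5% of those of the co-culture and 92.7% of those of the spheroid, against 64.4% in the tumor.

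**Figure D1:**
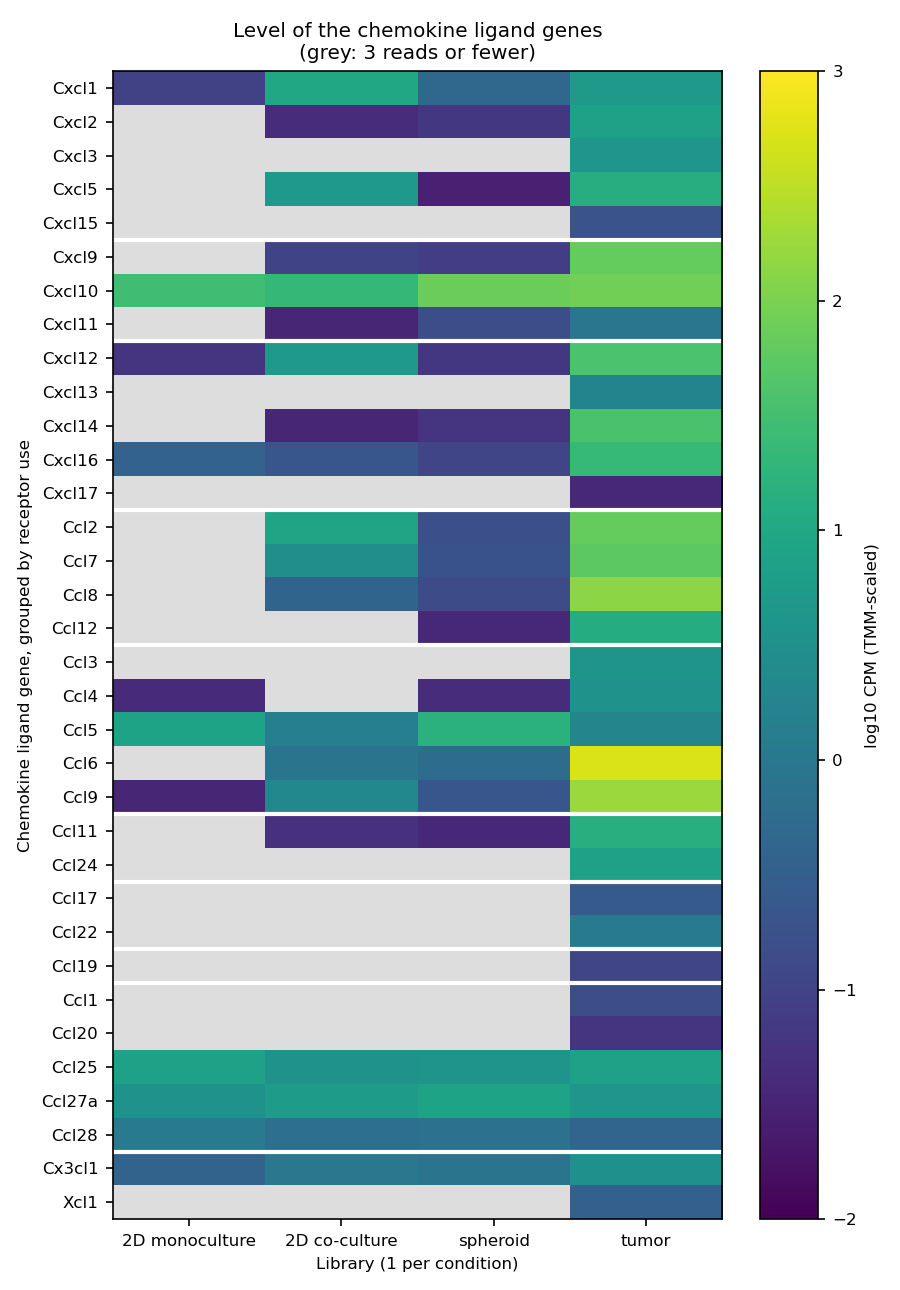
Level of the 34 chemokine ligands with a read in any library, as log10 CPM, with 1 row per gene, 1 column per library and white lines between groups of ligands by receptor. Cells with 3 reads or fewer are grey. The tumor column has no grey cell, whereas Cxcl10, Ccl5, Ccl25, Ccl27a and Ccl28 are present in all 4 columns and Cxcl1, Cxcl5, Cxcl12, Ccl2 and Ccl7 stand out in the co-culture among the cultures.

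The ligands of the melanoma cells themselves were read from the 2D monoculture, which was grown without other cells. Cxcl10, an interferon-induced ligand of CXCR3, had the highest level per kilobase in each of the 3 culture libraries, with 13.2 CPM per kb in the 2D monoculture, 9.67 CPM per kb in the co-culture and 34.1 CPM per kb in the spheroid. Its level was 29.6 CPM in the 2D monoculture (28.7 to 30.5), 21.8 CPM in the co-culture (20.9 to 22.6), 76.9 CPM in the spheroid (75.4 to 78.4), with 86.9 CPM in the tumor (85.4 to 88.3). The spheroid and the tumor were high and both monolayer cultures were low. The log2 ratio of the spheroid was 1.38 to the 2D monoculture (1.32 to 1.43), 1.82 to the co-culture (1.76 to 1.88) and -0.18 to the tumor (-0.21 to -0.14). GENCODE places 133 exon bases of Art3 opposite Cxcl10, which is 5.91% of its exon bases, and Art3 had 25.1 CPM in the tumor and at most 1.67 CPM in the cultures.

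Cxcl9 and Cxcl11, the neighbours of Cxcl10 and ligands of the same receptor, were nearly without reads in the cultures. Cxcl9 had 2 reads in the 2D monoculture, 12 in the co-culture, 11 in the spheroid and 10748 in the tumor, where its level was 66.2 CPM (65.0 to 67.5). Cxcl11 had 3, 4, 22 and 146 reads in the same order, and RefSeq lists it as a transcribed pseudogene in C57BL/6J. For spheroid over 2D monoculture its log2 ratio was 2.94, with a wide interval of 1.20 to 5.32. The 3 neighbours therefore had unlike patterns, with Cxcl10 in every library, Cxcl9 in the tumor and Cxcl11 at under 1 CPM throughout.

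Ccl5, which attracts T cells and monocytes, had the second highest level per kilobase in the 2D monoculture and the spheroid, at 8.31 CPM per kb in the former. It had 7.98 CPM in the 2D monoculture (7.52 to 8.46), 1.45 CPM in the co-culture (1.24 to 1.69), 15.4 CPM in the spheroid (14.8 to 16.1), with 1.86 CPM in the tumor (1.66 to 2.08). The spheroid was highest, and the co-culture and the tumor were lowest. Its log2 ratio of spheroid to co-culture was 3.41 (3.18 to 3.65), and that of spheroid to tumor was 3.05 (2.88 to 3.23). The difference between spheroid and 2D monoculture was smaller, with a log2 ratio of 0.95 (0.84 to 1.05). Ccl5 was lower in the co-culture than in the 2D monoculture by a log2 ratio of -2.46 (-2.70 to -2.22), whereas for Cxcl10 this ratio was -0.44 (-0.52 to -0.37). Ccl5 was also the only ligand that was more than 2-fold lower in the tumor than in the 2D monoculture with 1 CPM added to both values. Its neighbours Ccl9, Ccl6, Ccl3 and Ccl4 had between 0 and 6 reads in the 2D monoculture.

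Ccl27a, Ccl25 and Ccl28 are ligands that epithelial tissues are known to make, with CCR10 as the receptor of Ccl27a and Ccl28 and CCR9 as that of Ccl25. Ccl27a had 3.47 CPM in the 2D monoculture (3.17 to 3.79), 5.83 CPM in the co-culture (5.39 to 6.29), 8.12 CPM in the spheroid (7.65 to 8.62), with 4.32 CPM in the tumor (4.01 to 4.66). It was highest in the spheroid, with a log2 ratio of 1.23 to the 2D monoculture (1.07 to 1.38). Its exons have a GC content of 58.0%, and genes of its GC class also had higher ratios, with a median of 0.68. With 1 CPM added and GC correction, chosen after the data were seen, the log2 ratio of the spheroid was 0.35 to the 2D monoculture and turned to -0.13 against the co-culture and -0.79 against the tumor. Ccl25 had 7.26 CPM in the 2D monoculture (6.82 to 7.71), 3.68 CPM in the co-culture (3.33 to 4.05), 3.79 CPM in the spheroid (3.47 to 4.13), with 7.35 CPM in the tumor (6.94 to 7.78). The intervals of the 2D monoculture and the tumor overlapped, as did those of the co-culture and the spheroid, under TMM scaling. Ccl25 has a GC content of 39.2%, and this pattern changed with 1 CPM added and GC correction. Its log2 ratio of spheroid to tumor turned from -0.80 to 0.27. The ratio to the 2D monoculture moved from 0.02 to -0.44 for the tumor and from -0.79 to -0.35 for the spheroid. Ccl28 had 1.17 CPM in the 2D monoculture (0.995 to 1.36), 0.681 CPM in the co-culture, 0.778 CPM in the spheroid, with 0.425 CPM in the tumor. It was the only one of the 26 ligands with at least 1 CPM in a library that did not reach 1 CPM in the tumor. The library kit does not mark strand, so reads of overlapping genes cannot be told apart: Ccl25 shares 204 exon bases with Elavl1, which had between 52.3 and 113 CPM, and Ccl27a shares 8 with Il11ra1, which had between 42.0 and 69.3 CPM.

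**Figure D2:**
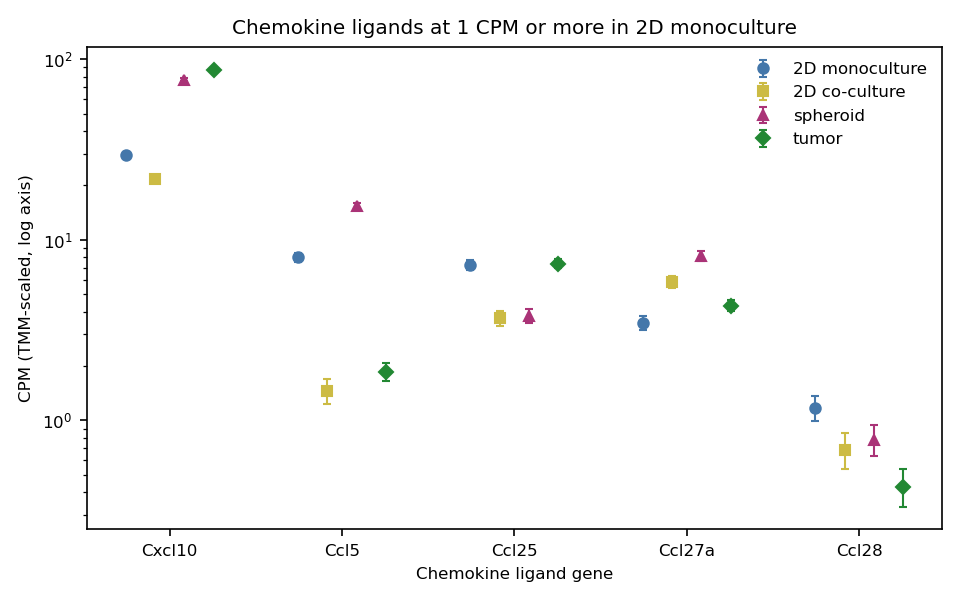
CPM of the 5 chemokine ligands with at least 1 CPM in the 2D monoculture, on a log axis, with 1 point per library and 95% counting intervals. Cxcl10 lies at 76.9 CPM in the spheroid, with 86.9 CPM in the tumor, whereas Ccl5 lies at 15.4 CPM in the spheroid, with 1.86 CPM in the tumor.

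To describe the ligands as a list, a gene was counted as higher or lower when its values differed by more than 2-fold after 1 CPM was added to both. All 5 comparisons share libraries with each other, so their counts are not independent. The counts are over the 34 ligands with a read and stand beside those over all 19894 genes with a read. Between the spheroid and the 2D monoculture, 2 ligands were higher in the spheroid, Cxcl10 and Ccl27a, against 7.35% of all genes, and 0 were lower, against 11.6% of all genes. Scaling by total counts left 1 of these ligands, Cxcl10, and with GC correction the 2 ligands were Cxcl10 and Ccl6. The median log2 ratio of the ligands was 0.03, against 0.00 for all genes. The share of ligands called between these libraries was near or under the background.

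Without the added CPM, ligands of few reads count too. The whole counting interval of the spheroid over the 2D monoculture lay above 2-fold for 10 of 34 ligands, against 9.3% of all genes, namely Ccl2, Ccl27a, Ccl6, Ccl7, Ccl8, Ccl9, Cxcl1, Cxcl10, Cxcl11 and Cxcl2. Except for Cxcl10 and Ccl27a, these stayed under 0.6 CPM in the spheroid. As a share of the tumor level, Ccl6 was at 0.112%, Ccl8 at 0.104%, Ccl9 at 0.118%, Ccl2 at 0.257%, Ccl7 at 0.332% and Cxcl2 at 0.929%. Other genes high in the tumor, described further on, had a median of 0.124% in the spheroid. The share over all genes is thus not a like background for these ligands. Cxcl1, a neutrophil attractant, had 13 reads in the 2D monoculture and 63 in the spheroid, a log2 ratio of 2.34 (1.47 to 3.33). Cx3cl1, a membrane-bound ligand that attracts monocytes and T cells, had 0.393 CPM in the 2D monoculture, 0.987 CPM in the co-culture, 0.852 CPM in the spheroid, with 3.23 CPM in the tumor. Cxcl16, the other membrane-bound ligand, had 0.379 CPM in the 2D monoculture, 0.218 CPM in the co-culture, 0.110 CPM in the spheroid, with 22.0 CPM in the tumor. With 1 CPM added and GC correction, the log2 ratio of spheroid to 2D monoculture turned from 0.41 to -0.14 for Cx3cl1. For Cxcl16 it went from -0.31 to -0.33. Cxcl16 also shares 552 exon bases, 18.3% of its own, with Zmynd15 on the opposite strand. Zmynd15 had 22 reads in the 2D monoculture, 9 in the co-culture and 8 in the spheroid.

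**Figure D3:**
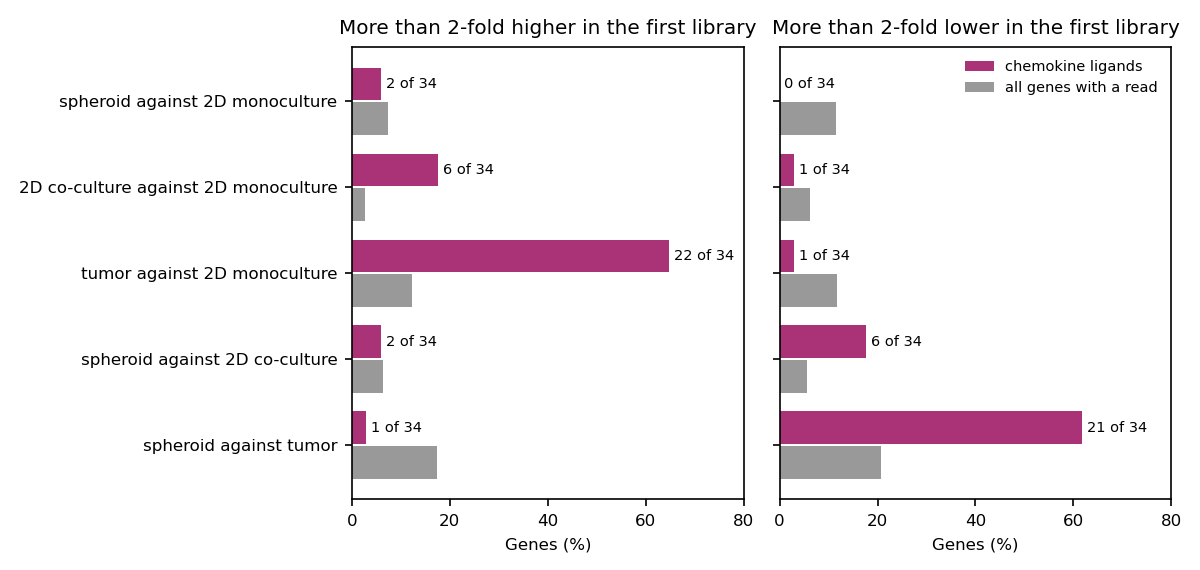
Share of the chemokine ligands (purple) and of all genes with a read (grey) that were more than 2-fold higher (left) or lower (right) in the first library named, with 1 CPM added to each value. The counts of ligands are 22 of 34 higher in the tumor than in the 2D monoculture, 21 of 34 lower in the spheroid than in the tumor and 6 of 34 higher in the co-culture than in the 2D monoculture.

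With 1 CPM added, the co-culture with fibroblasts on plastic gave a set of higher ligands unlike that of the spheroid. Between the co-culture and the 2D monoculture, 6 ligands were higher, against 2.7% of all genes. In the same comparison 1 was lower, Ccl5, against 6.19% of all genes. By the whole counting interval, the higher ligands were Ccl2, Ccl6, Ccl7, Ccl8, Ccl9, Cxcl1, Cxcl12 and Cxcl5. All but Cxcl5 and Cxcl12 were also higher in the spheroid by that measure. The share of all genes by this measure was not computed for the co-culture. Neither these names nor their overlap with the spheroid can therefore be set against a background. With 1 CPM added, the median over the 34 ligands was 0.02 on the log2 scale, against 0.00 for all genes. Most ligands were under 1 CPM in both libraries, where the added CPM holds the ratio near 0. The median therefore cannot tell whether they moved. It was 0.23 with 0.1 CPM added and 0.31 over the ligands averaging at least 1 CPM. The neutrophil-attracting Cxcl1 had 0.0912 CPM in the 2D monoculture, 1145 reads in the co-culture (9.43 to 10.6 CPM), 0.463 CPM in the spheroid, with 4.85 CPM in the tumor (4.51 to 5.20). It was the only one of the 6 that was higher in the co-culture than in the tumor, with a log2 ratio of 1.04 (0.91 to 1.18). Cxcl5, another ligand of CXCR2, had 0 reads in the 2D monoculture, 550 in the co-culture, 4 in the spheroid and 2084 in the tumor. Against the 3 reads per library that a count of 0 allows, it was at least 228-fold higher in the co-culture than in the 2D monoculture. Cxcl2, the neighbour of Cxcl1, was not among them, with 0, 5, 9 and 1155 reads in the same order of libraries, and Cxcl3 had 0 reads in all 3 cultures and 647 in the tumor.

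Among the CCR2 ligands, which draw monocytes, Ccl2 had 0 reads in the 2D monoculture, 934 in the co-culture, 23 in the spheroid and 10666 in the tumor. Its level was 8.16 CPM in the co-culture (7.64 to 8.70), at least 387-fold above the 2D monoculture, whereas the tumor had 65.7 CPM. Ccl7 followed with 0, 345, 25 and 8984 reads, and was at least 143-fold higher in the co-culture than in the 2D monoculture. The next members of their cluster on chromosome 11 had few reads in the co-culture, with 46 reads for Ccl8, 6 for Ccl11 and 1 for Ccl12, although these had 21886, 2284 and 1990 reads in the tumor. Cxcl12, which binds CXCR4 and is made by stromal cells, had 0.0562 CPM in the 2D monoculture, 5.07 CPM in the co-culture (4.67 to 5.50), 0.0661 CPM in the spheroid, with 38.5 CPM in the tumor. Ccl9 had 0.0351, 2.12, 0.213 and 180 CPM in the same order.

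The 9 fibroblast markers summed to 17.6 CPM in the 2D monoculture, 679 CPM in the co-culture, 36.5 CPM in the spheroid, with 2728 CPM in the tumor, and none of them had 0 reads in any library. With 1 CPM added, 5 of the 9 were over 2-fold higher in the co-culture than in the 2D monoculture, against 2.7% of all genes. In the spheroid, 3 were higher than in the 2D monoculture, against 7.35% of all genes. Col1a2, a collagen chain, made up most of the sum in the co-culture, with 514 CPM there and 4.05 CPM in the spheroid. Pdgfrb, a growth factor receptor, had 1570 reads in the 2D monoculture, or 11.02 CPM. Its level was 27.7 CPM in the co-culture, 23.5 CPM in the spheroid, with 18.5 CPM in the tumor. It was thus among both the 5 markers higher in the co-culture and the 3 higher in the spheroid. Between the spheroid and the co-culture, 6 of the 9 markers were over 2-fold lower in the spheroid, against 5.7% of all genes. In the same comparison 0 were higher, against 6.29% of all genes. Pdgfrb was not among these 6 markers and was near its co-culture level in the spheroid. The part of NIH/3T3 RNA in the 6 ligands was not tested, and the libraries hold no NIH/3T3 cells alone.

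Between the spheroid and the co-culture, both grown with NIH/3T3 cells, the same 6 ligands were lower in the spheroid, against 5.7% of all genes, and Cxcl10 and Ccl5 were higher, against 6.29% of all genes. The log2 ratio was -7.35 for Cxcl5 (-9.23 to -5.99), -6.26 for Cxcl12 (-7.40 to -5.33), -5.59 for Ccl2 (-6.26 to -5.00), -4.43 for Cxcl1 (-4.82 to -4.07), -4.04 for Ccl7 (-4.68 to -3.45) and -3.32 for Ccl9 (-3.93 to -2.76). In the spheroid each of the 6 was under 0.5 CPM.

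The tumor library had the most chemokine transcripts by far. Between the tumor and the 2D monoculture, 22 of the 34 ligands were higher, against 12.4% of all genes, and 1 was lower, against 11.8% of all genes. The median log2 ratio was 2.22 for the ligands and 0.01 for all genes. Total-count and upper-quartile scaling shift every such ratio by 0.24 and 0.25, and those of the spheroid over the 2D monoculture by -0.12 and 0.12. In such a bulk library, fewer cells of a type and less RNA per cell cannot be told apart. Ccl6, a ligand of CCR1 that macrophages make, had 1 read in the 2D monoculture, 99 in the co-culture, 80 in the spheroid and 85344 in the tumor, where it took 40.3% of all chemokine reads. Its level per kilobase in the tumor was 293 CPM, followed by Ccl8 with 264, Ccl7 with 69.1, Ccl9 with 59.0, Ccl2 with 57.7 and Cxcl10 with 38.6 CPM per kb. Ccl8 and the CCR2 ligands Ccl2, Ccl7 and Ccl12 had 135, 65.7, 55.3 and 12.3 CPM in the tumor. Each had 0 reads in the 2D monoculture. Ccl9, a ligand of CCR1 like its neighbour Ccl6, had 180 CPM (178 to 182).

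The CXC ligands of the tumor covered several receptors. Cxcl9 had 66.2 CPM, Cxcl12 38.5 CPM, Cxcl14 37.5 CPM and Cxcl16 22.0 CPM. Cxcl14 had 1 read in the 2D monoculture, 4 in the co-culture and 8 in the spheroid, and its receptor is not settled. Among the neutrophil attractants, the level was 12.8 CPM for Cxcl5, 7.11 CPM for Cxcl2, 4.85 CPM for Cxcl1 and 3.99 CPM for Cxcl3. Cxcl13, which guides B cells through CXCR5, had 1.82 CPM in the tumor and at most 2 reads in a culture.

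Ccl11 and Ccl24, which attract eosinophils through CCR3, had 14.1 CPM and 7.23 CPM, and at most 6 reads and 1 read in a culture. Ccl3 and Ccl4, which attract macrophages and T cells, had 3.84 CPM and 3.70 CPM, against at most 2 and 6 reads in a culture. Ccl22, a ligand of CCR4 that dendritic cells make, had 1.20 CPM and 0 reads in all cultures. Several ligands had few reads even in the tumor, with 18 for Ccl19, a CCR7 ligand, 9 for Ccl20, a CCR6 ligand, 26 for Ccl1, 56 for Xcl1 and 6 for Cxcl17.

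The tumor's ligands stood beside markers of host cells. The 12 myeloid markers summed to 2338 CPM in the tumor and to between 11.8 and 30.5 CPM in the cultures, where Cd68 and Lyz2 made up most of the sum, and each of the 12 had a read in every library. The 4 neutrophil markers summed to 13.4 CPM in the tumor with Ly6g at 0 reads, the 8 lymphoid markers to 7.50 CPM, the 10 endothelial markers to 386 CPM and the 5 skeletal muscle markers to 4514 CPM. In the 2D monoculture these sums were 0.119, 0.400, 29.6 and 2.42 CPM. The parts of these cell types in the ligand levels were not tested.

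Between the spheroid and the tumor, 21 of the 34 ligands were lower in the spheroid, against 20.6% of all genes, and 1 was higher, Ccl5, against 17.4% of all genes. The median log2 ratio was -2.09 for the ligands and -0.03 for all genes. Cxcl10 was the one ligand of the interferon group near the tumor level in the spheroid, while Cxcl9 was 820-fold lower there. Total-count scaling moves every ratio of spheroid to tumor by -0.36, and the count of lower ligands then was 22. The ratio also varied with GC content: the ligands had a median GC content of 45.6%, against 49.7% for genes averaging 1 CPM or more, and genes in the GC classes of the ligands had a median log2 ratio of -0.55. With GC correction, 21 ligands were lower, and the log2 ratio of Cxcl10 with 1 CPM added turned from -0.17 to 0.23. The part of GC content in single ligands was not tested.

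Low levels of the tumor's ligands in the spheroid and the co-culture were then set beside those of other genes of the tumor. These were the 54 genes outside all lists with at least 5000 tumor reads and, in the 2D monoculture, less than 0.03% of their tumor CPM. As a share of the tumor, they had a median of 0.124% in the spheroid (quartiles 0.103% and 0.178%) and one of 0.189% in the co-culture (quartiles 0.152% and 0.250%). The same share was computed for the 15 ligands with at least 500 tumor reads that stayed under 1% of that level in the 2D monoculture. Ligands and genes were thus both taken for high tumor reads, and the limit for the ligands was the wider one. In the spheroid, 6 of the 15 lay within the quartiles of the other genes, 6 above and 3 below, with a median of 0.157%. Ccl6 was at 0.112% of the tumor (0.0886% to 0.139%), Ccl8 at 0.104% (0.0623% to 0.162%), Ccl9 at 0.118% (0.0793% to 0.170%) and Cxcl9 at 0.122% (0.0609% to 0.218%). These 4 are among the 6 within the quartiles. The whole interval lay above the upper quartile for 2 of the 15 ligands in the spheroid, against 7.41% of the 54 genes, namely Cxcl2 with 0.929% (0.424% to 1.77%) from 9 reads and Ccl7 with 0.332% (0.215% to 0.490%) from 25 reads.

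In the co-culture, the whole interval lay above the upper quartile for 5 of the 15 ligands, against 18.5% of the 54 genes. They were Cxcl5 at 37.4% of the tumor's level, Cxcl12 at 13.2%, Ccl2 at 12.4%, Ccl7 at 5.45% and Ccl9 at 1.18%. Of the 15, 4 lay below the quartiles of the other genes, 2 within and 9 above. Under the limit of the other genes in the 2D monoculture, a choice made after the data were seen, 13 ligands remained, with 4 above by their whole interval in the co-culture and 2 in the spheroid. Cxcl12, at 0.146% in the 2D monoculture, was the one of the 5 that fell out. Cxcl1 was left out by the limit on the 2D monoculture. The other 10 ligands had a median of 0.161% in the co-culture and lay between 0% and 0.614%, with Ccl6 at 0.164% (0.134% to 0.200%). The ligands of the co-culture thus spanned a wide range, with 10 at 0% to 0.614% and 5 at 1.18% to 37.4% of the tumor's level. The origin of the reads of these ligands and other genes in the cultures was not tested.

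**Figure D4:**
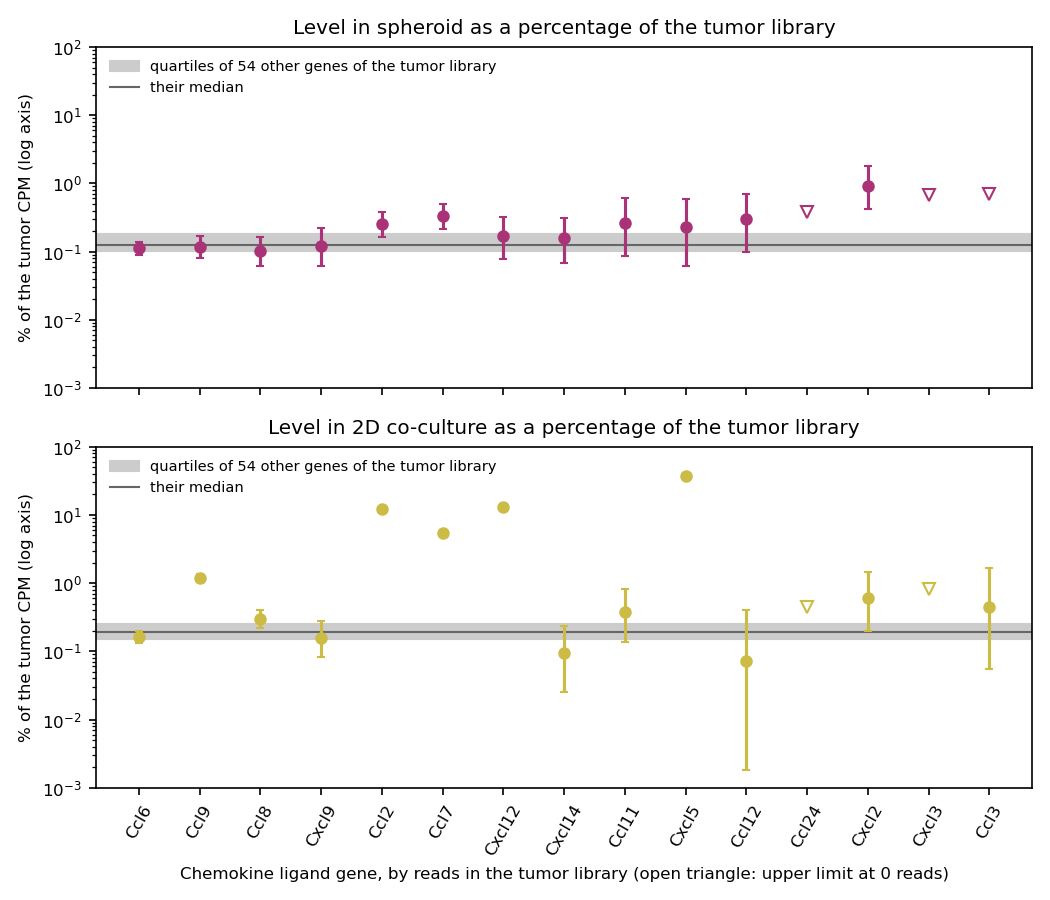
Level of 15 chemokine ligands in the spheroid (top) and the co-culture (bottom) as a percentage of their CPM in the tumor, on a log axis, with 95% counting intervals and open triangles at the upper limit where no read was found. The grey band gives the quartiles of 54 other genes of the tumor. In the spheroid Cxcl2 and Ccl7 lie above the band with their whole interval, and in the co-culture Ccl9, Ccl2, Ccl7, Cxcl12 and Cxcl5 do so, at 1.18% to 37.4%.

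The receptors of these ligands were read from a list of 18 signalling chemokine receptors. Of the 18, 10 were more than 2-fold higher in the tumor than in the 2D monoculture with 1 CPM added, against 12.4% of all genes, and 1 was lower, against 11.8%. Ccr2, the receptor of Ccl2, Ccl7 and Ccl12, had 79.6 CPM in the tumor and 0 reads in the 2D monoculture. Ccr1, a receptor of Ccl6 and Ccl9, had 32.1 CPM in the tumor and likewise 0 reads in the 2D monoculture. Cxcr4, the receptor of Cxcl12, had 19.1 CPM in the tumor and 1 or 2 reads in each culture. Cx3cr1 had 4.55 CPM, Cxcr3 3.02 CPM, Ccr3 2.63 CPM, Ccr7 2.62 CPM, Cxcr2 1.37 CPM and Cxcr6 1.20 CPM in the tumor. In the cultures, Ccr2 had 11 reads in the co-culture and 14 in the spheroid, or 0.121% and 0.129% of its level in the tumor.

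Ccr10, the receptor of Ccl27a and Ccl28, was the one signalling receptor with at least 1 CPM in the cultures. It had 4.89 CPM in the 2D monoculture, 6.37 CPM in the co-culture, 7.62 CPM in the spheroid, with 1.78 CPM in the tumor. The 3 cultures were thus above the tumor, with a log2 ratio of 2.10 for the spheroid (1.91 to 2.29). The order of the cultures was that of Ccl27a without GC correction. With 1 CPM added and GC correction, the log2 ratio of Ccl27a to the 2D monoculture was 0.49 in the co-culture and 0.35 in the spheroid. The part of GC content in Ccr10 was not tested. Cxcr3, the receptor of Cxcl10, had 0.204 CPM in the 2D monoculture, 0.908 CPM in the co-culture and 0.0514 CPM in the spheroid, where its ligand was highest among the cultures.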

How the data were processed

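The authors deposited 1 table of raw read counts per refGene symbol, without normalization, for 4 libraries. The submitters' processing notes name Trimmomatic, STAR, featureCounts and mm10, without versions or settings. R 4.3.3 with edgeR 4.0.16 gave the TMM factors behind each CPM. Alternatives were scaling with DESeq2 1.42.0, total counts or upper quartiles, a pseudocount of 0.1 CPM, a mean of at least 1 CPM, calls by the whole interval and a GC correction in 10 classes. Python 3.11.15, numpy 2.4.6, pandas 2.3.3, scipy 1.17.1 and matplotlib 3.10.9 were used for the rest. Intervals of levels are exact Clopper-Pearson intervals, and a log2 ratio has the exact binomial interval for how both libraries' reads are split. Ratios of single genes have nothing added, and counts and medians of lists use 1 CPM. The study used NOISeq and GFOLD, which were not run. The members and lists were chosen with earlier results of these data known. Every ligand and signalling receptor with at least 1 CPM in a library is named, except 1 receptor that is not reported here. The lists are ligands by receptor, platelet chemokines, signalling and atypical receptors, sheddases, and melanocyte, fibroblast, myeloid, neutrophil, lymphoid, endothelial and skeletal muscle markers. Exon lengths, GC content and overlaps come from GENCODE M21, and positions and promoters from RefSeq, both on GRCm38. Ratios and intervals were tested on simulated data with counting error alone, in which only genes well above 1 CPM were changed. That check does not cover ligands of few reads or variation between replicates.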

Additional observations from a re-analysis of the deposited data

How the results depend on the processing

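No paired analysis was possible because every condition was sequenced as 1 library. The GC correction was chosen after seeing the data. Counts within 1.5 times and medians within 1.5-fold were taken as the same, which held for 87 values and failed for 10 with the alternatives other than the GC correction, and held for 15 and failed for 2 with it or with a narrower limit on the tumor-share ligands, also chosen after seeing the data. Ligands higher in the spheroid than in the 2D monoculture numbered 1 with total counts, 9 with a pseudocount of 0.1 CPM and 10 with the whole counting interval beyond 2-fold, and 1 was lower with 0.1 CPM. With the GC correction the 2 higher ligands were Ccl6 and Cxcl10. Ligands lower in the tumor than in the 2D monoculture numbered 2 with 0.1 CPM, with the whole interval and with the GC correction, Ccl28 joining Ccl5. Ligands higher in the spheroid than in the tumor numbered 2 with the GC correction. For the tumor over the 2D monoculture, the median log2 ratio moved to 4.72 with 0.1 CPM and 3.85 with a mean of at least 1 CPM, and that of spheroid to tumor to -4.49 and -3.81. The filter tests fewer ligands and the pseudocount adds less by construction, and for the other changes the cause was not tested. The median for the spheroid over the co-culture, near 0, turned from -0.0020 to 0.028 with the GC correction, and the spheroid over tumor ratios of ligands including Cxcl10 and Ccl27a changed sign too. Depth limits ligands of few reads in the cultures, such as Cxcl9, Cxcl11 and Cxcl2, whose intervals are wide.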

Other observations

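Platelet chemokines carry names outside the Ccl and Cxcl series. Pf4, which platelets and some macrophages make, had 0 reads in the 2D monoculture, 13 in the co-culture, 15 in the spheroid and 14943 in the tumor, where its level was 92.0 CPM. Ppbp, another ligand of CXCR2, had 0, 35, 6 and 2082 reads in the same order. In the co-culture, Pf4 was at 0.123% of the tumor's level (0.0657% to 0.211%) and Ppbp at 2.38% (1.66% to 3.33%).

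Among 5 atypical receptors, which bind chemokines without the usual signalling, Ackr3, a scavenger of Cxcl12, had 0.260 CPM in the 2D monoculture, 2.09 CPM in the co-culture, 0.242 CPM in the spheroid, with 42.1 CPM in the tumor. Its log2 ratio of co-culture to 2D monoculture was 3.01 (2.50 to 3.55). Ccrl2 had 4.42 CPM and Ackr1 2.66 CPM in the tumor, and Ackr2 and Ackr4 had under 0.5 CPM in every library. Adam10 and Adam17, proteases that release Cx3cl1 and Cxcl16 from the membrane, were lowest in the spheroid. Adam10 had 209 CPM in the 2D monoculture, 53.8 CPM in the spheroid, with 124 CPM in the tumor, and Adam17 had 112, 35.7 and 132 CPM in the same order.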
